A study of Homo sapiens with 4 samples.

Results

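The genes described here are those of the inflammasome and of pyroptosis: the sensors AIM2, NLRP1 and NLRP3, the adaptor PYCARD, the inflammatory caspases CASP1, CASP4 and CASP5, and the substrates IL18 and GSDMD. They were chosen by name, as the spots of the human arrays other than controls whose gene name is one of the 9. The rule uses no measured value, but the set was proposed with earlier results of these data known. All 9 were found, out of 27193 gene names on the array, with 11 probes and 20 spots among the 43118 spots other than controls on each array.

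Of 4 samples of MCF10A.B2 cells, 2 were labelled as control and 2 as expressing a shRNA against PAK1 (called PAK1 shRNA here), and the comparison asks what differs with less PAK1. MCF10A is an immortalized, non-tumorigenic line of human mammary epithelium, and the B2 derivative carries a chimeric form of the receptor Her2 (ErbB2) that the crosslinker AP1510 switches on. PAK1 is a protein kinase downstream of the small GTPases Rac and Cdc42. Cells of both groups were grown in DMEM/F12 with horse serum, starved of serum for 3 h and given AP1510 for 15 min, and their total RNA was labelled with Cy3 and hybridized to Agilent whole genome arrays. The shRNA is stably integrated and Tet inducible. The labels give the genotype of the first group as Ctrl and describe it as Pak1 wild type, which does not separate parental from uninduced shRNA cells, and arrays of a non-targeting shRNA were not analysed here. The series text speaks of cells from tumors, whereas the sample labels and the methods name the cell line, which was followed. Nothing states that the 2 samples of a group came from separate cultures, so p-values measure only the spread between these samples, which may be technical.

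An inflammasome is a complex that forms in the cytosol when a sensor detects microbial DNA, a toxin or damage to the cell. The sensor recruits PYCARD, which recruits pro-caspase-1, and the caspase, once active, cuts the precursors of interleukin-1 beta and interleukin-18 and the pore-forming protein gasdermin D. CASP4 and CASP5 bind bacterial lipopolysaccharide directly and cut gasdermin D without a sensor complex. Many of these proteins are held ready as inactive precursors, so their transcript levels describe the supply of the components and not the activity of the complex. Epithelial cells are known to carry part of this machinery, IL18 and CASP4 in particular.

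The probes on which the result for the inflammatory caspases rests are shown first, since CASP4, CASP5, CASP1 and the decoy gene CARD16 are neighbours of related sequence on chromosome 11 and the sequences show which stretch of each was read. All are 60 bases long, on the minus strand of hg19, written 5′ to 3′ as the array files give them, with no letter in capitals. The positions are chr11:104815492-104815551 for CASP4, chr11:104868142-104868201 for CASP5 and chr11:104915227-104915286 for CARD16. The CASP1 probe lies within chr11:104897058-104897602, a span of 545 bases for 60 bases of probe, so it crosses a splice junction.
CASP4: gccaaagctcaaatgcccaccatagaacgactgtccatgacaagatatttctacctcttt
CASP5: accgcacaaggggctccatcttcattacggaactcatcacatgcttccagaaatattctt
CASP1: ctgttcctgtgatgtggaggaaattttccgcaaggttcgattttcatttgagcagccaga
CARD16: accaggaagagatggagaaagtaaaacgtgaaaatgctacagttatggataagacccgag
The longest run of bases shared by any pair of the CASP4, CASP5 and CASP1 probes was 6 bases, and the CARD16 probe shared at most 6 bases with any of them. The probes were compared with each other only, not with the transcripts of the neighbouring genes, so whether a transcript gives signal at the probe of a relative was not tested. The probes of the member with the largest difference between groups, AIM2 (chr1:159033306-159033365), and of the one that did not pass the test, PYCARD (chr16:31212970-31213029), are given as well, also on the minus strand.
AIM2: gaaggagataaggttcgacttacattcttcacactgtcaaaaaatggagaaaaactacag
PYCARD: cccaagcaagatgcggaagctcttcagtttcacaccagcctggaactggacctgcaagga
Among the remaining probes, positions were chr11:112020811-112020870 for IL18 (minus strand), chr17:5418109-5418168 and chr17:5424887-5424946 for NLRP1 (minus strand), and chr1:247612029-247612089 and chr1:247611747-247611806 for NLRP3 (plus strand).

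Of the 9 genes, 8 were higher in PAK1 shRNA cells than in control cells and PYCARD did not pass the test (limma, Benjamini-Hochberg adjusted over 22001 genes, threshold 0.05). AIM2 rose 12.4-fold, NLRP3 3.68-fold, CASP1 3.00-fold, CASP5 2.66-fold, GSDMD 2.48-fold, CASP4 2.26-fold, IL18 1.71-fold and NLRP1 1.38-fold. By the same rule 62.9% of all genes tested were called, 31.1% higher and 31.8% lower, so a call alone is common in this comparison. A rise of at least 2-fold, which 6 of the 9 genes reached, was found in 8.86% of the whole set. For the 9 genes the log2 fold change had a median of 1.31, and for all genes tested 0.02. In 8 of the 9 genes both PAK1 shRNA arrays lay above both control arrays, which was so in 42.2% of all genes. The members were proposed with earlier results of these data in view, so these counts are a description and carry no test of the list.

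**Figure D1:**
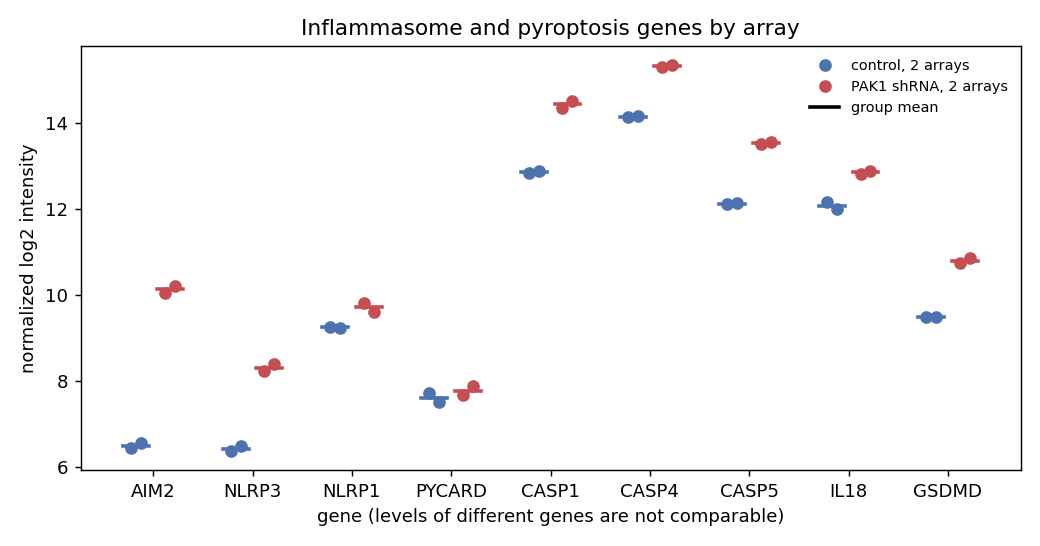
Normalized log2 intensity of the 9 genes (vertical axis) on each array, with 2 control and 2 PAK1 shRNA arrays and a bar at each group's mean. The points of the groups are separate for every gene except PYCARD, where control 1 (7.72) lies above PAK1 shRNA 1 (7.69), and the gap is widest for AIM2.

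The values below are normalized log2 intensities of the probe that stood for each gene. Intensities of different probes are not comparable as transcript levels, because probes differ in how well they hybridize, so only the difference between groups is compared from gene to gene. Beside them stand the mean signals of the spots before background correction, in scanner units. The probes used for the 9 genes gave signal well above background on all 4 arrays, and none was saturated. In these bulk samples fewer cells that express a gene and less RNA per cell cannot be told apart.

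The sensors AIM2 and NLRP3 were dim in control cells and had the largest rises of the 9 genes. AIM2, which binds double-stranded DNA in the cytosol, had 6.45 and 6.56 in control cells and 10.04 and 10.22 in PAK1 shRNA cells, and its spots read 78.4, 77.4, 877 and 978 scanner units in the same order. The PAK1 shRNA arrays were thus far above both control arrays before any processing. The mean rose from 6.50 ± 0.08 to 10.13 ± 0.13 (SD, n = 2 each), a log2 fold change of 3.63 (standard error 0.09, 95% interval 3.41 to 3.85, limma adjusted p = 7.04e-07). It ranked 147 by size of rise among the 22001 genes.

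NLRP3, the sensor that responds to potassium efflux and many forms of cell damage, had 6.38 and 6.49 in control cells against 8.24 and 8.39 in PAK1 shRNA cells, with spot signals of 73.5, 65.3, 252 and 274. Its log2 fold change was 1.88 (standard error 0.09, 95% interval 1.67 to 2.09, limma adjusted p = 6.18e-06), ranking 685. A second NLRP3 probe, which did not stand for the gene because it was dimmer, had 6.31, 6.18, 7.39 and 7.50, a difference of 1.20 on the log2 scale (standard error 0.09), and was not well above background on control 2. Both probes were thus higher on both PAK1 shRNA arrays, by different amounts.

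The size of both rises depended on how the background was treated, as control spots of AIM2 and NLRP3 lay close to it. The log2 fold change of AIM2 was 2.37 when the normexp correction was fitted on all spots and 5.56 with the scanner's own processed signal. That of NLRP3 was 1.06 and 3.87 under the same settings. The fit on all spots follows a few spots of high local background, which 8 and 18 spots of control 1 and 2 had (above 100, with maxima of 26111 and 41412). The direction and the call of both genes were the same under every alternative run.

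NLRP1, the sensor that is held inactive by the peptidases DPP8 and DPP9 and is prominent in epithelia, differed least among the genes called. It had 9.27 and 9.24 in control cells and 9.83 and 9.61 in PAK1 shRNA cells, a log2 fold change of 0.47 (standard error 0.09, 95% interval 0.24 to 0.69, limma adjusted p = 0.00449), and the call was lost with a plain unpaired test in place of limma. Its spots read 808, 619.6, 762 and 635 scanner units, so the groups overlapped before normalization between arrays and were separate after it. The second NLRP1 probe had 8.14, 8.15, 8.47 and 8.30, a difference of 0.24 on the log2 scale (standard error 0.09). Its spots read 335, 272, 296 and 258 scanner units. For both probes control 1 had the highest spot signal, so the rise of NLRP1 was seen only after normalization between arrays.

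PYCARD (ASC), the adaptor that links sensors to pro-caspase-1, had 7.72 and 7.52 in control cells and 7.69 and 7.89 in PAK1 shRNA cells. The groups overlapped, and the log2 fold change of 0.16 had a 95% interval of -0.09 to 0.42 (limma adjusted p = 0.218). The interval leaves room for a change of up to 0.42 in the rising direction, which is below the lower bound of the interval for every other member except NLRP1. With each array centred on its median in place of quantile normalization, PYCARD was called higher at 0.29 (limma adjusted p = 0.0339), a setting that also shifted the median of all genes to 0.14.

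All 3 inflammatory caspases rose, with log2 fold changes of 1.18 to 1.58. CASP1, which cuts the interleukin precursors, had 12.83 and 12.88 in control cells and 14.36 and 14.52 in PAK1 shRNA cells, with spot signals of 9655, 7937, 17695 and 20033. Its log2 fold change was 1.58 (standard error 0.08, 95% interval 1.38 to 1.79, limma adjusted p = 1.08e-05). CASP5, a sensor of cytosolic lipopolysaccharide, had 12.12, 12.13, 13.51 and 13.56, with spot signals of 5964, 4763, 9947 and 10453. Its log2 fold change was 1.41 (standard error 0.07, 95% interval 1.24 to 1.59, limma adjusted p = 8.89e-06).

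CASP4, the other lipopolysaccharide sensor and the one that epithelia are known to express at steady state, had 14.13, 14.16, 15.30 and 15.34, with spot signals of 23424, 19201, 35038 and 36988. Its log2 fold change was 1.18 (standard error 0.07, 95% interval 1.00 to 1.35, limma adjusted p = 1.83e-05). These probes gave strong signal in every sample, and their changes stayed between 1.14 and 1.70 over the alternatives run. The intervals of neighbours in the order CASP1, CASP5, CASP4 overlap, and the differences among the 3 genes were not tested.

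Both substrates rose. IL18, an interleukin that epithelial cells store as a precursor, was read by 10 spots on each array, whose signals had a coefficient of variation of 9.71% to 11.2% within an array. It had 12.15 and 12.00 in control cells and 12.81 and 12.89 in PAK1 shRNA cells, a log2 fold change of 0.77 (standard error 0.08, 95% interval 0.57 to 0.98, limma adjusted p = 0.00025). Its mean spot signals were 6139.5, 4371, 6061 and 6416, with control 1 above PAK1 shRNA 1 before normalization between arrays. One spot of PAK1 shRNA 1 carried an outlier flag and was left out.

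GSDMD, whose cut product forms the membrane pore of pyroptosis, had 9.49 in both control samples and 10.74 and 10.87 in PAK1 shRNA cells, with spot signals of 943, 741, 1396.5 and 1532. Its log2 fold change was 1.31 (standard error 0.08, 95% interval 1.12 to 1.50, limma adjusted p = 1.78e-05). The groups did not overlap before or after normalization.

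**Figure D2:**
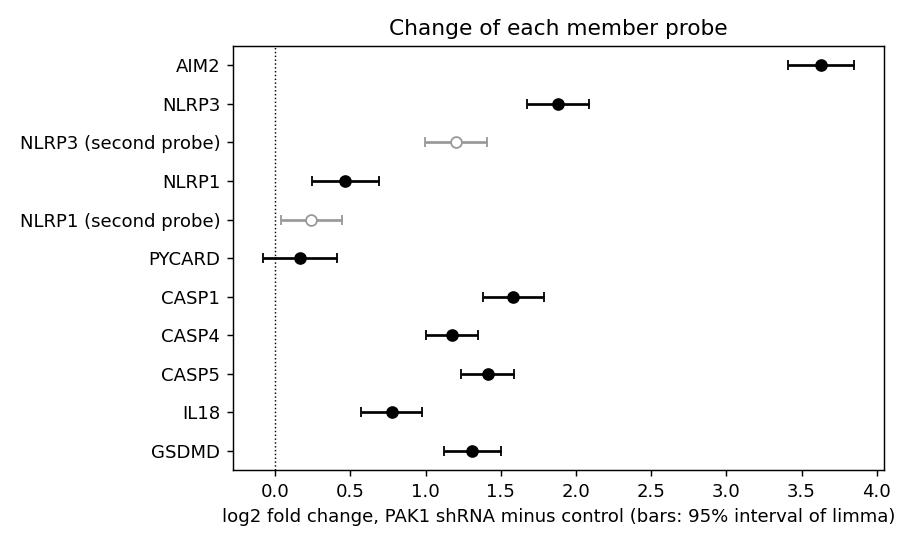
Log2 fold change of each gene, PAK1 shRNA minus control (horizontal axis), with its 95% interval from limma; open grey points are the second probes of NLRP3 and NLRP1, and the dotted line is at 0. AIM2 stands apart at 3.63, the 3 caspases and GSDMD lie between 1.18 and 1.58, and the interval of PYCARD crosses 0.

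PAK1 itself, which checks the labels, had 11.19 and 11.27 in control cells and 10.45 and 10.51 in PAK1 shRNA cells, 59.5% of the control level. Its log2 fold change was -0.75 (standard error 0.08, limma adjusted p = 0.00018). All 4 arrays lay on 1 slide. On each array 78.9% to 83.2% of probes were well above background, and the number of arrays limits the precision.

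The caspase genes of the cluster on chromosome 11 are followed by genes of decoy proteins that hold little more than a caspase recruitment domain. Their order in RefSeq is CASP4, CASP5, CASP1, CARD16, CARD17 and CARD18, with pseudogenes and non-coding genes between some of them. CARD16, which binds pro-caspase-1 and can restrain it, had 10.34, 10.53, 12.08 and 12.23, a log2 fold change of 1.72 (standard error 0.10, limma adjusted p = 1.4e-05). CARD17, which the current RefSeq table lists as a pseudogene, had 10.24, 10.34, 11.71 and 11.96, a log2 fold change of 1.55 (standard error 0.10, limma adjusted p = 2.6e-05). The probes of the 5 genes from CASP4 to CARD17 thus all rose, by 1.18 to 1.72. CARD16 and CARD17 are close relatives of CASP1, so their values are uncertain as values of separate genes. CARD18, at the far end, went the other way, with 8.61, 8.69, 8.45 and 8.34, a log2 fold change of -0.25 (standard error 0.08, limma adjusted p = 0.030), a call that was lost without control 2 or PAK1 shRNA 2 and with the processed signal (-0.27), and the change was -0.17 with normexp fitted on all spots. CARD18 is named after its values were seen.

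**Figure D3:**
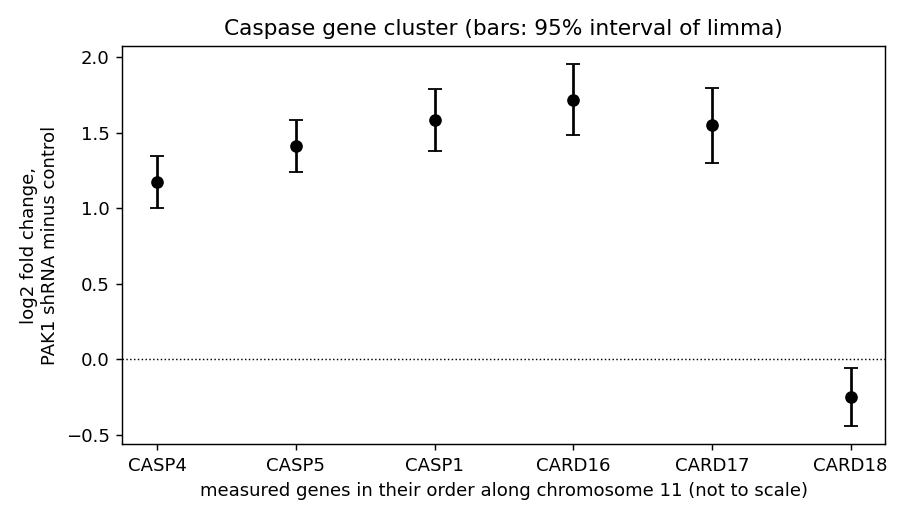
Log2 fold change (PAK1 shRNA minus control, with 95% interval from limma) of the genes of the caspase cluster, in their order along chromosome 11 (horizontal axis, not to scale). The 5 genes from CASP4 to CARD17 lie between 1.18 and 1.72, and CARD18 lies at -0.25.

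CASP12, at the other end of the cluster, was not above background in either group by the filter and was not tested. Outside the cluster, the other caspases had no common direction: of 7 tested, 3 were higher, 2 were lower and 2 did not pass. Of all genes tested, 31.1% were called higher and 31.8% lower. CASP8, the initiator of the extrinsic death pathway, had 10.33, 9.70, 12.04 and 12.25 (log2 fold change 2.13, standard error 0.20, limma adjusted p = 0.00012), a call that was lost with the plain unpaired test. CASP6, an executioner, fell by 1.49 on the log2 scale (standard error 0.09, limma adjusted p = 1.7e-05), and CASP2, which is tied to the response to DNA damage, fell by 0.96 (standard error 0.08, limma adjusted p = 6.6e-05), or by 0.52 with its probes averaged.

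The promoters of 5 of the 9 genes (CASP4, CASP5, AIM2, NLRP3 and PYCARD) were in the RefSeq table used, on GRCh38.p14. Those of CASP1, NLRP1, IL18 and GSDMD had no entry. Because interferon is known to induce several of these genes, the window from 250 bases before to 50 bases after each start was searched on both strands for an interferon-stimulated response element, written as GAAA, any 2 bases and GAAA again, and a gamma-activated site, written TTCNNNGAA, which reads the same on both strands. The AIM2 window held 1 response element, on the strand opposite to the gene, and the CASP5 window held 2 that overlap each other and 1 gamma-activated site. The windows of CASP4, NLRP3 and PYCARD held neither set of letters. Of 35116 promoters of the table, 3.57% held the first motif and 7.66% the second. The 250 bases before the start are shown for the genes with a match, with the matched letters in capitals, AIM2 at chr1:159076767-159077016 and CASP5 at chr11:105023169-105023418, both on the minus strand.
AIM2: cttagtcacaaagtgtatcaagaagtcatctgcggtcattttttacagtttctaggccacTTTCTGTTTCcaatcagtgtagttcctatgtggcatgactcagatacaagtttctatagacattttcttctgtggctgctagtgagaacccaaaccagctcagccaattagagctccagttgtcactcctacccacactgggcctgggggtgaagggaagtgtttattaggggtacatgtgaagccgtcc
CASP5: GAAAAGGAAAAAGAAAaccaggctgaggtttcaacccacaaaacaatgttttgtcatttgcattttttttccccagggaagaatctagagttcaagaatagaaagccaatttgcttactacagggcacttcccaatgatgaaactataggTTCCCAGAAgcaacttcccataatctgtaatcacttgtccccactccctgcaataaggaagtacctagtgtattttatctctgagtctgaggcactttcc
In AIM2 the match lies 190 to 181 bases before the start. In CASP5 the response elements lie 250 to 241 and 244 to 235 bases before it and the gamma-activated site 100 to 92 bases. These are matches of letters in the reference sequence and say nothing of binding in these cells.

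The rest of the pathway was described from lists of 58 genes grouped by role, all on the array, of which 49 passed the filter on dim probes. Of these, 35 were higher, 7 were lower and 7 did not pass, with a median log2 fold change of 0.69 against 0.02 over all genes. The share of all genes called higher was 31.1% and of those called lower 31.8%. A filter that keeps genes bright in 1 group favours genes that differ. GSDMC and IL1R2, counted among the 35, passed it through the PAK1 shRNA arrays only. Without the filter the median of the wider pathway was 0.42. The 9 listed genes that were not tested did not pass the filter in either group, among them the sensors NLRP2, NLRP6, NLRP7, NLRP10 and NLRP12.

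**Figure D4:**
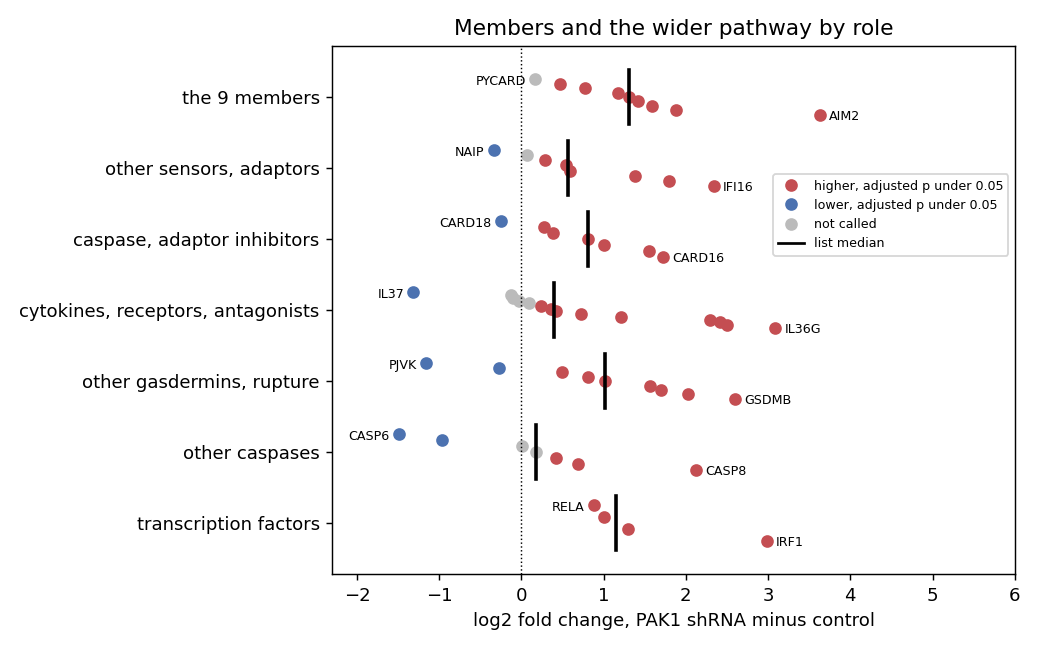
Log2 fold change, PAK1 shRNA minus control (horizontal axis), of the 9 genes and of the 49 tested genes of the wider pathway, one row per role, with red points for genes called higher by limma, blue for lower, grey for genes not called, and a bar at the median of each row; GSDMC and IL1R2, at background in control cells, are drawn at their fitted values. All 4 transcription factors lie right of 0, while every other row of the wider pathway reaches to both sides.

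Among the other sensors and adaptors, 6 of 8 tested genes were higher, 1 was lower and NLRC4 did not pass. The shares over all genes tested were 31.1% higher and 31.8% lower. IFI16, a nuclear and cytosolic DNA sensor of the same family as AIM2, rose by 2.34 (standard error 0.08, limma adjusted p = 2.1e-06). NOD2 and NOD1, which bind fragments of bacterial cell wall and signal through NF-kappaB, rose by 1.79 (standard error 0.10, limma adjusted p = 1.4e-05) and 1.38 (standard error 0.10, limma adjusted p = 3.1e-05). With normexp fitted on all spots they rose by 1.30 and 1.09. NAIP, the flagellin-binding partner of NLRC4, was the gene called lower, at -0.34 (standard error 0.11, limma adjusted p = 0.031), and it lost that call without control 1 (-0.20), PAK1 shRNA 1 or PAK1 shRNA 2, with background subtracted to a floor and with the processed signal.

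Of 7 inhibitors tested, 6 were higher and CARD18 was lower, against 31.1% and 31.8% of all genes tested. The 6 include CARD16 and CARD17, whose values are uncertain as values of separate genes. They also include DPP8 and DPP9, which rose by 0.39 and 0.27 (standard error 0.07 each). Beside CARD16 and CARD17, SERPINB1, an inhibitor of neutrophil proteases that also restrains inflammatory caspases, rose by 1.01 (standard error 0.10, limma adjusted p = 0.00017), and PYDC1, a pyrin-only protein that binds PYCARD, by 0.81 (standard error 0.10, limma adjusted p = 0.00037). The change of PYDC1 depended on the background treatment, with 0.43 for normexp fitted on all spots and 1.83 for the processed signal.

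Of the cytokines, receptors and antagonists, 9 of 14 tested genes were higher, 1 was lower and 4 did not pass. Over all genes tested, 31.1% were called higher and 31.8% lower. IL36G, an epithelial cytokine of the interleukin-1 family, rose by 3.09 (standard error 0.24, limma adjusted p = 4.8e-05), or by 2.20 with normexp fitted on all spots. IL33, an alarmin held in the nucleus, rose by 2.50 (standard error 0.08, limma adjusted p = 1.6e-06), or by 2.01 with that fit. IL1RN, the antagonist of the interleukin-1 receptor, rose by 2.42 (standard error 0.08, limma adjusted p = 1.9e-06), or by 1.61 with its probes averaged. The antagonist of IL18, IL18BP, had 8.09, 8.01, 10.11 and 10.57, a log2 fold change of 2.30 (standard error 0.15, limma adjusted p = 2.3e-05) beside 0.77 for IL18 itself. The change of IL18BP was 1.69 with normexp fitted on all spots and 2.69 with the processed signal. IL1B, the other main substrate of CASP1, had 13.12, 13.39, 13.81 and 14.15, a log2 fold change of 0.73 (standard error 0.14, limma adjusted p = 0.0035). Its call was lost with the plain unpaired test. The gene called lower was IL37, an anti-inflammatory member of the family, at -1.31 (standard error 0.10, limma adjusted p = 4.6e-05), or -0.83 with normexp fitted on all spots. IL1R2, a decoy receptor, was not well above background in control cells. Its rise in PAK1 shRNA cells was estimated at 2.32-fold under the background correction used, which is no lower bound. The rise was smaller with normexp fitted on all spots (log2 fold change 0.65), and the call of IL1R2 was lost with the plain unpaired test.

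Of the other gasdermins and genes of membrane rupture, 7 of 9 were higher and 2 lower, against 31.1% and 31.8% of all genes tested. GSDMB, which granzyme A cuts, rose by 2.60 (standard error 0.11, limma adjusted p = 4.5e-06). TXNIP, which can bind NLRP3, rose by 2.03 (standard error 0.11, limma adjusted p = 1.3e-05), and PANX1, a channel for ATP, by 1.70 (standard error 0.11, limma adjusted p = 2.6e-05). GSDME, the gasdermin cut by caspase-3, had 11.32, 11.31, 12.34 and 12.33 (log2 fold change 1.02, standard error 0.07, limma adjusted p = 3.2e-05). NINJ1, which breaks the membrane at the end of pyroptosis, rose by 0.81 (standard error 0.07, limma adjusted p = 9.9e-05). GSDMC too was not well above background in control cells, and its rise with the shRNA was estimated at 2.86-fold under the same correction. This estimate is no lower bound. With normexp fitted on all spots the log2 fold change of GSDMC was 0.83, below that estimate, and with the processed signal 4.70. PJVK, the gasdermin relative of the inner ear, was lower, at -1.16 (standard error 0.11, limma adjusted p = 0.00013), or -0.82 with normexp fitted on all spots.

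All 4 transcription factors described, each known to act on some of the 9 genes, were higher, as were 31.1% of all genes tested. IRF1, an activator induced by interferon, rose by 2.98 (standard error 0.07, limma adjusted p = 6.4e-07), and IRF2, which binds the same sites, by 1.29 (standard error 0.08, limma adjusted p = 1.6e-05), or 0.83 with normexp fitted on all spots. The NF-kappaB subunits NFKB1 and RELA rose by 1.00 (standard error 0.09, limma adjusted p = 0.00011) and 0.88.

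Many of these genes are also known from monocytes and macrophages, so markers of other cell types were read beside them. All 8 basal and 5 general epithelial markers were well above background on all arrays, but so were all 5 lymphocyte markers, so this measure does not separate cell types here. Of the 8 basal markers 5 were lower, KRT5 at -1.14, TP63 at -1.13, KRT14 at -0.96, KRT17 at -0.72 and EGFR at -0.55, while 2 were higher and 1 did not pass. Their summed intensity was 416241 to 466056 in control cells and 386059 to 393086 in PAK1 shRNA cells. Of the 5 general epithelial markers 2 were higher, 1 was lower (KRT19, at -1.01) and 2 did not pass, with sums of 197522 to 206161 against 259019 to 285385. With normexp fitted on all spots TP63 was at -0.75 and KRT19 at -0.63. Of 10 markers of monocytes and macrophages 9 were matched, and all 9 were well above background on all arrays, in control cells too. Of these, 4 were higher: CD68 by 3.75, CD14 by 1.32, CSF1R by 0.66 and ITGAM by 0.46, the last not called without control 2 and at 0.30 with normexp fitted on all spots. PTPRC, AIF1, TYROBP, CD163 and SPI1 did not pass, with log2 fold changes of -0.12 to 0.20. The summed intensity of the 9 was 21410 to 22603 in control cells and 54354 to 59662 in PAK1 shRNA cells, a sum made up mostly of CD14 (14.21, 14.15, 15.44 and 15.56 on the log2 scale), so it does not stand for the list as a whole. That of the 5 lymphocyte markers was 759 to 777 against 803 to 807. Of 4 fibroblast markers tested, 3 were higher and 1 was lower, with sums of 3955 to 4709 against 7811 to 8016. Such sums give most weight to the brightest probes. Beside the counts of markers called, 31.1% of all genes tested were called higher and 31.8% lower. The part of these markers in the rise of the inflammasome genes was not tested.

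**Figure D5:**
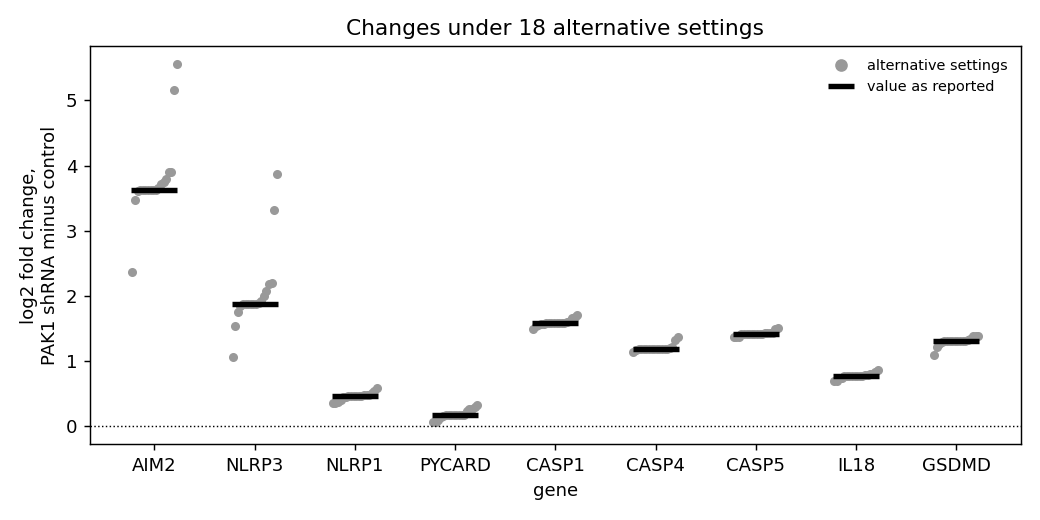
Log2 fold change of each of the 9 genes, PAK1 shRNA minus control (vertical axis), under the main setting and each alternative processing. AIM2 (2.37 to 5.56) and NLRP3 (1.06 to 3.87) spread widely, the bright caspases hardly move, and no gene changes sign.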

How the data were processed

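RNA of 2 control and 2 PAK1 shRNA samples was read on 1-colour Agilent arrays. The authors deposited spot intensity values from Agilent Feature Extraction (version 9.5.3.1), not normalized between arrays, and a log2 table, which served as an alternative. Probe positions are on hg19. Mean signals were corrected with normexp (offset 50), leaving spots with a flagged local background out of the fit of its parameters, a choice made because the fit on all spots was known to compress dim genes. Control spots were dropped, arrays quantile normalized, flagged outlier spots left out and spots of a probe averaged. A probe was kept if at least 50% of its unflagged spots were well above background on each array of 1 or both groups, and the brightest kept probe represented its gene. limma 3.58.1 (lmFit, eBayes) in R 4.3.3 tested 22001 genes, with Benjamini-Hochberg adjustment at 0.05. The test was checked on simulated data. The members and lists were chosen with earlier results of these data known. By rule, all members, PAK1 and the 3 largest called changes of each list are named. CARD18, NAIP, PYDC1, DPP8, DPP9, IL18BP, IL1B, IL1R2, IL37, GSDME, NINJ1, GSDMC, PJVK, RELA and the markers with values were named after their values were seen. A gene not above background in a group had its fold computed with each array's faintest well measured signal, or its own if higher. Such a fold is an estimate and no lower bound, as it leaves out the spread between arrays. The mouse arrays were not analysed here, and 2 genes of the planned lists are not reported here and were left out of the counts.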

Additional observations from a re-analysis of the deposited data

How the results depend on the processing

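No result changed direction under any alternative run, and 8 of the 9 genes were higher under each, other than 9 with median centring and 7 with the unpaired t-test, where NLRP1 (0.47) had an adjusted p of 0.0931 (0.0015 to 0.0268 under the others). Among the other genes named, CASP8, CARD18, IL1B, NAIP, CSF1R, ITGAM, IL1R2 and KRT5 also missed the threshold with that test. RELA, DPP8, DPP9, PTPRC, AIF1, TYROBP, CD163 and SPI1 were not put through the alternatives. Of the settings run PYCARD passed only with median centring, at 0.29, with adjusted p from 0.0965 to 0.692 elsewhere. The median over the 9 genes, 1.31, was 1.09 with normexp fitted on all spots, 1.39 with background subtracted to a floor, 1.38 with the processed signal, 1.22 with median centring and 1.25 to 1.39 with 1 array left out. That of the wider pathway, 0.69, was 0.49 with normexp fitted on all spots, 0.88 with the processed signal, 0.42 without the filter and 0.57 to 0.69 with 1 array left out. Median centring and the processed signal moved the median of all genes to 0.14 and 0.12. Median centring called 8516 genes higher and 6643 lower against 6841 and 6998, the processed signal 7561 and 6381, and the unpaired t-test 4418 and 4749, with 4 of the wider pathway lower. With 1 array left out, 5820 to 6495 genes were higher and 6006 to 6659 lower, 8 of the 9 genes stayed called, and 30 to 33 of the wider pathway were higher and 5 lower. Deviations of same-numbered arrays correlated at 0.0092 over 27517 probes, so no shift shared by replicate number was seen. This does not show how the samples were prepared. A fit with replicate number as block called 7016 genes higher and 7084 lower, and 8 of the 9 genes were higher. Leaving out the 9 genes and PAK1, 772 values were obtained for other genes of the lists and the median of all genes. Of these, 738 stayed the same, 26 lost the call and 8, all of them the median of all genes, moved. Control signals of AIM2 and NLRP3 close to background limit how well their folds are known.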
